A study of Homo sapiens with 4 samples.

Results

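Complex I, the NADH:ubiquinone oxidoreductase of the mitochondrial inner membrane, is assembled from subunits encoded by the nucleus and by mitochondrial DNA, and their messenger RNAs were compared between HMLE cells depleted of hnRNP F and control cells. Members were all genes of the table whose symbol is NDUFA, NDUFB, NDUFC, NDUFS or NDUFV followed by a number, and the MT-ND genes. The rule found 44 genes of the 60302 listed, 37 nuclear and 7 mitochondrial, each with 1 row. HMLE cells are human mammary epithelial cells that were immortalized and grow as a line. Lentivirus was used to derive cells stably expressing a short hairpin RNA against hnRNPF (hnRNPF knockdown, 2 samples) or a non-specific one (control, 2 samples). PolyA-selected RNA was sequenced as stranded paired-end libraries, and the values are FPKM, fragment numbers divided by transcript length and by the size of the library. The labels do not tell whether samples 1 and 2 of each group were infected separately or carried different hairpins. The spread behind each p-value is therefore that of these 4 samples, which may be technical, and n = 2 per group throughout.

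Complex I takes electrons from NADH in its matrix arm and passes them along iron-sulfur clusters to ubiquinone, and the membrane arm pumps protons. Its catalytic core consists of nuclear-encoded matrix subunits, in an N module that oxidises NADH and a Q module that reduces ubiquinone, and of the mitochondrially encoded ND proteins of the membrane arm. The remaining nuclear-encoded subunits are accessory. The mitochondrial genes are transcribed inside the organelle as long precursors from both strands, and the nuclear genes one by one in the nucleus. NDUFA4, which the name rule includes, is now assigned to cytochrome c oxidase (complex IV).

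All but 1 of the mitochondrial subunits are read from the same strand, and MT-ND6 is read from the other. This gives their transcripts opposite base composition, which is shown because MT-ND6 also differed from the rest in its level and in its order across samples. The first 180 bases of MT-ND6 (chrM:14494-14673, minus strand) and of MT-ND3 (chrM:10059-10238, plus strand) are given 5′ to 3′ from the transcripts of GENCODE 29, at the intervals of the deposited table, to which their lengths are equal. Runs of 4 or more G are in capitals.
MT-ND6: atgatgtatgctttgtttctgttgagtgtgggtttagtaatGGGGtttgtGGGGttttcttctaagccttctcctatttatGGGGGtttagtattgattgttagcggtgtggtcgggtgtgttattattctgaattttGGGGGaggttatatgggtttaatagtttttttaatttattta
MT-ND3: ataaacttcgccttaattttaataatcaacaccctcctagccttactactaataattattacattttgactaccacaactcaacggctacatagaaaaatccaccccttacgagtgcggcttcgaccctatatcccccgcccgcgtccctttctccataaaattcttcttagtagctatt
MT-ND6 is 35.6% G and 7.05% C and holds 12 such runs in 525 bases. MT-ND3 is 10.7% G and 29.5% C and holds 0 in 346 bases. MT-ND4 and MT-ND1 hold 1 run each, and MT-ND4L, MT-ND2 and MT-ND5 hold 0. hnRNP F is known to bind runs of G, but the table does not report binding.

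MT-ND4L and MT-ND4 share a transcript, and the reading frames overlap by 7 bases. The last 30 bases of MT-ND4L (chrM:10737-10766) and the first 30 of MT-ND4 (chrM:10760-10789), both on the plus strand, are shown because fragments across this junction can be assigned to either gene; the shared bases are in capitals.
MT-ND4L: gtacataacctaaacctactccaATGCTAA
MT-ND4: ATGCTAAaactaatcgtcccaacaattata
The level of MT-ND4L was 0.809 and 0.753 of that of MT-ND4 in knockdown samples 1 and 2, and 0.793 and 0.736 in controls 1 and 2.

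HNRNPF, the targeted gene (ENSG00000169813.16, chr10:43881065-43904614, minus strand, GRCh37), stood at 18.7 and 16.6 FPKM in the knockdown samples and at 154 and 153 FPKM in the controls, and every sample matched its label (log2 fold change -3.05, SE 0.0986, adjusted p = 0.0251). These and all following tests are from limma on log2(FPKM + 1), two-sided, adjusted by Benjamini-Hochberg over all genes tested. That call was lost when either control was left out (limma, adjusted p = 0.262 without control 1 and 0.104 without control 2), and over all alternatives its adjusted p lay between 0.0124 and 0.262. All 8 mammary epithelial markers reached 1 FPKM in all 4 samples, and they summed to 9116 and 10279 FPKM in knockdown and to 7179 and 10719 FPKM in the controls, mostly from KRT5, KRT14 and KRT17. Of these 8 markers 0 passed the adjusted threshold (limma, 2 at an unadjusted p under 0.05), and the groups did not overlap in 5 (62.5%, beside 34.6% of all tested genes), 3 higher and 2 lower in knockdown. KRT18 was at 121 and 146 FPKM in knockdown and at 172 and 177 FPKM in the controls (limma, adjusted p = 0.782), and EPCAM was at 38.6 and 38.9 FPKM in knockdown and at 56.4 and 45.9 FPKM in the controls (limma, adjusted p = 0.805). KRT17 (log2 fold change 0.67), TP63 (0.37) and KRT8 (0.14) were higher in both knockdown samples, and the part of these markers in the results on the subunits was not tested. The leukocyte genes PTPRC and CD3E, the endothelial genes CDH5 and VWF and both adipocyte genes stayed at or near 0. CD68 was at 11.2 and 11.3 FPKM in knockdown and at 12.0 and 12.1 FPKM in the controls. COL1A1, a fibroblast gene, was at 11.5 and 12.3 FPKM in knockdown and at 10.4 and 9.24 FPKM in the controls. The other fibroblast genes, COL1A2, PDGFRA, DCN and LUM, stayed at or under 0.476 FPKM in all samples. Values summed to between 391184 and 396135 FPKM per sample, and between 12664 and 13390 genes reached 1 FPKM. Fragment totals are not listed. The mitochondrial chromosome held 8.60% and 8.97% of summed FPKM in the knockdown samples and 8.82% and 6.97% in the controls, so control 2 stood apart. In these bulk samples a smaller share of some cells and less RNA per cell cannot be told apart.

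No complex I subunit passed the adjusted threshold between the groups. All 44 members passed the filter of a mean of 1 FPKM, and 0 rose and 0 fell (limma, adjusted p under 0.05), against 0.00763% of the 13110 tested genes called, which is HNRNPF alone. At an unadjusted p under 0.05 there were 2 members (4.55%), against 6.08% of all tested genes. Of these 1 was higher, NDUFA13, and 1 lower, NDUFA12, and of all tested genes 3.06% were higher and 3.02% lower. In 7 members both knockdown samples exceeded both controls and in 8 both were lower, together 34.1%, against 34.6% of all tested genes. The median absolute log2 fold change was 0.10 over the members and 0.12 over all tested genes. The members therefore separated the groups about as often as genes at large.

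The mitochondrial members ranged widely among themselves, and all but MT-ND6 were above every nuclear member in all 4 samples. MT-ND4, a proton-pumping subunit of the membrane arm, was at 4015 and 4020 FPKM in the knockdown samples and at 4429 and 3140 FPKM in the controls. MT-ND4L, its small membrane-embedded neighbour, was at 3248 and 3026 FPKM in knockdown and at 3511 and 2311 FPKM in the controls. MT-ND2, another pumping subunit, was at 1337 and 1240 FPKM in knockdown and at 1455 and 1060 FPKM in the controls. For these 3 genes both knockdown samples lay between the controls, with control 1 highest and control 2 lowest. Their log2 fold changes were 0.11 (SE 0.217) for MT-ND4, 0.14 (SE 0.243) for MT-ND4L and 0.05 (SE 0.191) for MT-ND2, each with an adjusted p of 0.999 (limma).

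MT-ND1, which contributes to the ubiquinone-binding channel, was at 960 and 954 FPKM in the knockdown samples and at 877 and 737 FPKM in the controls. It was the only mitochondrial member whose groups did not overlap (14.3% of the 7, beside 34.6% of all tested genes). The log2 fold change of MT-ND1, 0.25 (SE 0.132), did not pass (limma, adjusted p = 0.89). MT-ND5, the distal pumping subunit, was at 936 and 862 FPKM in knockdown and at 864 and 645 FPKM in the controls. MT-ND3, a small subunit at the junction of the arms, was at 863 and 821 FPKM in knockdown and at 823 and 704 FPKM in the controls. In both genes knockdown 2 lay just below control 1, so the groups overlapped. The log2 fold change was 0.27 (SE 0.177; limma, adjusted p = 0.916) for MT-ND5 and 0.14 (SE 0.128; limma, adjusted p = 0.963) for MT-ND3.

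MT-ND6, the membrane subunit read from the other strand, was at 57.3 and 77.9 FPKM in the knockdown samples and at 50.1 and 61.4 FPKM in the controls. Here sample 2 of each group was the higher, and the groups overlapped (log2 fold change 0.26, SE 0.192; limma, adjusted p = 0.924). The value was 0.48 without knockdown 1, 0.05 without knockdown 2, 0.12 without control 1 and 0.41 without control 2. By mean level in this polyA-selected RNA, MT-ND4 was 63.3-fold above MT-ND6. How far the selection retained each transcript was not tested. Within single samples that ratio was 70.0 and 51.6 in knockdown and 88.4 and 51.2 in the controls. The order MT-ND4, MT-ND4L, MT-ND2, MT-ND1, MT-ND5, MT-ND3, MT-ND6 held in 3 of 4 samples, and control 2 had MT-ND3 above MT-ND5. The ranges of MT-ND4 and MT-ND4L overlapped, as did those of MT-ND1, MT-ND5 and MT-ND3. MT-ND2 and MT-ND6 were each separate from their neighbours in every sample.

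**Figure D1:**
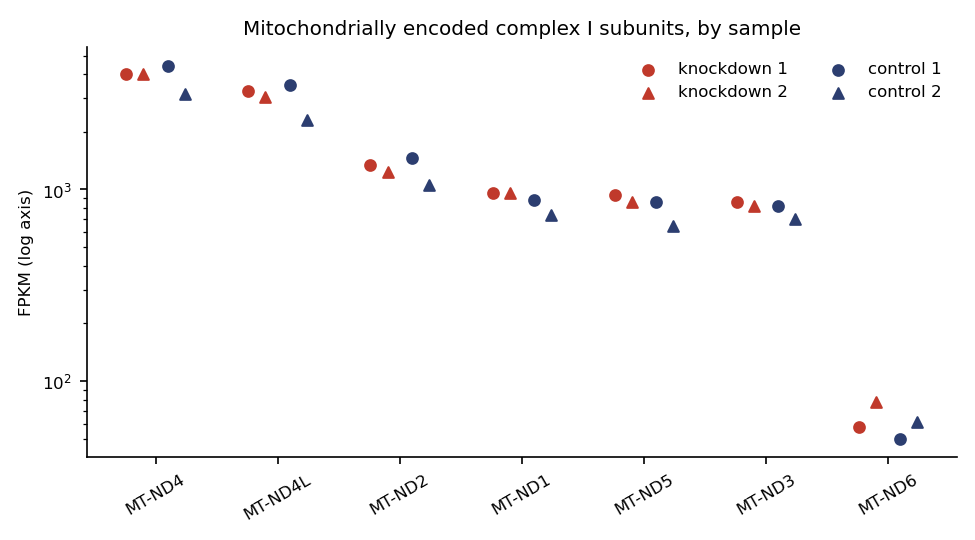
FPKM (log axis) of the 7 mitochondrially encoded subunits in each of the 4 samples, knockdown in red and control in blue, with circles for sample 1 and triangles for sample 2. Control 2 is lowest for the first 6 genes, and MT-ND6 lies between 50.1 and 77.9 FPKM.

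The log2 fold changes of the 7 mitochondrial members were all above 0, between 0.05 for MT-ND2 and 0.27 for MT-ND5, with a median of 0.14 beside 0.0012 over all tested genes, of which 50.2% were above 0. Their adjusted p-values lay between 0.89 and 0.999 (limma). All but MT-ND6 are read from the same strand, and MT-ND4L and MT-ND4 share a transcript, so these are not 7 separate observations. The median was 0.0321 without control 2, which held the lowest value of every one of them but MT-ND6. Against control 2 the median was 0.35 higher in knockdown 1 and 0.36 higher in knockdown 2. Against control 1 it was 0.07 in knockdown 1 and -0.004 in knockdown 2, and only 4 and 2 of the 7 genes were higher. Without control 2 the log2 fold change was -0.14 for MT-ND4, -0.16 for MT-ND4L and -0.18 for MT-ND2, and it was 0.03 for MT-ND3, 0.06 for MT-ND5 and 0.13 for MT-ND1.

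The nuclear members as a set showed no common direction. Of the 37, 19 had a log2 fold change above 0 and 18 below, with a median of 0.012, beside 50.2% and 49.8% of all tested genes. The groups did not overlap in 14 (37.8%, beside 34.6% of all tested genes), 6 higher and 8 lower in knockdown. Their mean log2(FPKM + 1) was 5.44 and 5.34 in the knockdown samples and 5.40 and 5.32 in the controls. For the mitochondrial members it was 9.92 and 9.92 in knockdown and 9.90 and 9.59 in the controls. The difference between both genomes, mitochondrial minus nuclear, was 4.48 and 4.58 in the knockdown samples and 4.50 and 4.27 in the controls. Knockdown exceeded control by 0.144 on this measure, but knockdown 1 lay below control 1, and without control 2 the value was 0.0266. The summed mitochondrial FPKM was 6.10 and 6.22 times the summed nuclear FPKM in knockdown, and 6.62 and 4.98 times in the controls. These sums are descriptions, with no test.

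**Figure D2:**
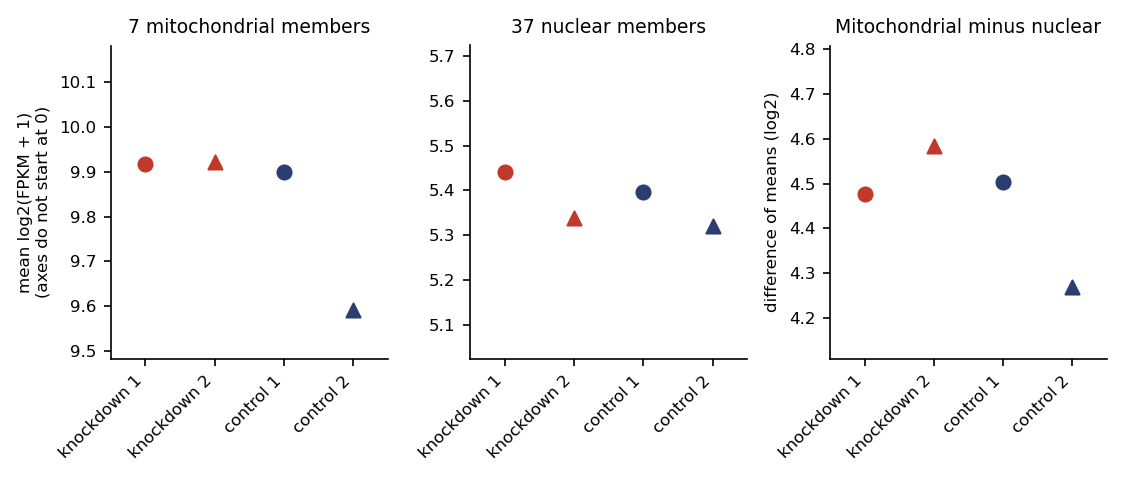
Mean log2(FPKM + 1) of the mitochondrial members, of the nuclear members, and their difference, 1 point per sample, knockdown left of control; the axes do not start at 0. Control 2 stands at 9.59 for the mitochondrial members, and the other 3 samples lie between 9.90 and 9.92.

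The contrast between MT-ND6 and the other mitochondrial subunits was followed along the whole mitochondrial chromosome, a comparison chosen after the values were seen. All 12 messenger RNAs of the plus strand were lower in control 2 than in control 1, and MT-ND6, the single messenger RNA of the minus strand, was higher. Of the 8 transfer RNA genes of the minus strand, 7 were higher in control 2, as were 7 of 14 of the plus strand. Between the knockdown samples, 5 of the 12 plus-strand messenger RNAs were higher in knockdown 2, as were MT-ND6 and 6 of 8 minus-strand transfer RNA genes. So were 6 of 14 plus-strand transfer RNA genes and the 2 ribosomal RNAs of the plus strand, which were lower in control 2 than in control 1. The log2 difference there was 0.37 for MT-CO1, on the plus strand, and 0.44 for MT-ND6. Whether the authors counted by strand is not given in the sources used here, and without strand the reads of MT-ND6 and of precursors read across it from the other strand cannot be told apart. The transfer RNA genes are short, and most of their values in this polyA-selected RNA were low. MT-TL1, on the plus strand, was at 146 and 179 FPKM in knockdown and at 125 and 138 FPKM in the controls, above MT-ND6. Transfer RNA genes of the minus strand summed to 60.5 and 85.4 FPKM in knockdown and to 47.1 and 61.0 FPKM in the controls. For the plus strand the sums were 281 and 318 FPKM in knockdown and 241 and 245 FPKM in the controls. How far the selection retained transfer RNA or MT-ND6 was not tested. Between samples of 1 group MT-ND6 thus differed in the same direction as most minus-strand genes, and in the controls in the opposite direction to the other subunits. In the knockdown samples the plus-strand genes went both ways.

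**Figure D3:**
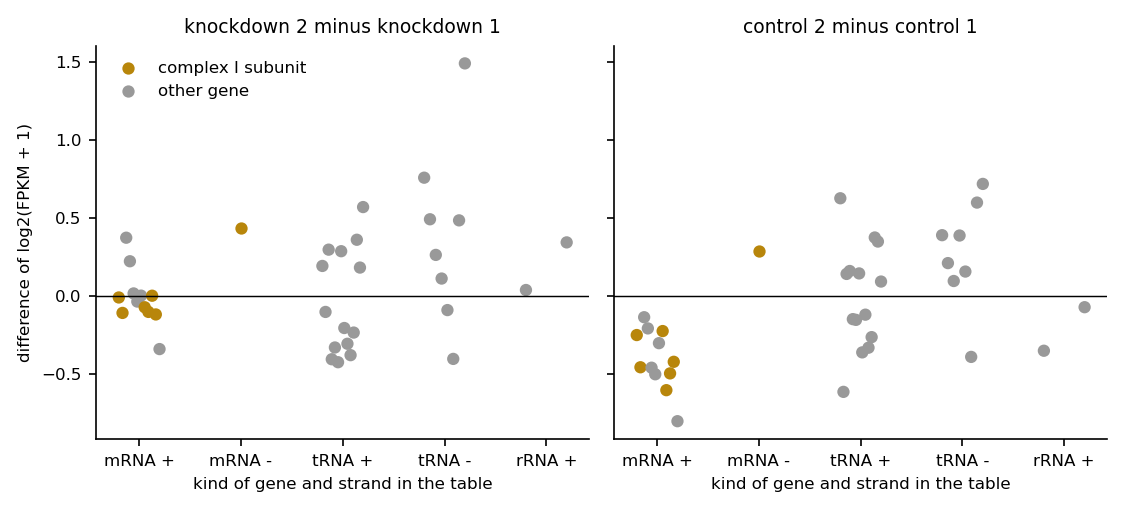
Difference of log2(FPKM + 1) between sample 2 and sample 1, within knockdown (left) and within control (right), for each gene of the mitochondrial chromosome by kind and strand, complex I subunits in gold. In the controls all plus-strand messenger RNAs lie below 0 and MT-ND6 lies at 0.29.

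Copies of mitochondrial DNA lie in the nuclear genome, and reads can be split between these and the members. MTND1P23, on chromosome 1, is 99.4% identical to MT-ND1 over 349 aligned bases and was at 21.8 and 21.8 FPKM in knockdown and at 20.4 and 15.0 FPKM in the controls. MTND2P28, beside it, is 98.4% identical to MT-ND2 over 1042 bases and was at 212 and 200.2 FPKM in knockdown and at 233 and 155 FPKM in the controls. These were the only 2 of 197 listed MTND pseudogenes with a mean of 0.5 FPKM or more. Both copies were lowest in control 2, like the members they resemble. Adding the copies, an alternative chosen after seeing the data, left the log2 fold change of MT-ND1 at 0.25 and that of MT-ND2 at 0.06, against 0.05 alone.

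Nuclear members spanned a 15.3-fold range of mean level, and their median was 38.8 and 37.9 FPKM in the knockdown samples and 39.4 and 39.9 FPKM in the controls. The middle mitochondrial member, MT-ND1, had a mean of 882 FPKM. NDUFS5, an accessory subunit on the intermembrane side, was the highest at 194 and 195 FPKM in the knockdown samples and 185 and 181 FPKM in the controls. NDUFV3, an accessory subunit of the NADH-oxidising tip, was the lowest at 12.1 and 11.6 FPKM in knockdown and 12.3 and 13.3 FPKM in the controls. The coefficient of variation over the 4 samples had a median of 6.70% for the nuclear members and 13.9% for the mitochondrial ones. Among nuclear members it was lowest for NDUFB11 (2.30%) and highest for NDUFS1 (49.1%), a core subunit. Of the nuclear members, 17 overlap another gene with a mean of 0.5 FPKM or more, 7 on the same strand and 15 on the opposite one. Among these NDUFA7 moved most when the same-strand neighbours, ELAVL1 and CTD-2550O8.5, were added, from a log2 fold change of -0.01 alone to 0.14 summed.

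**Figure D4:**
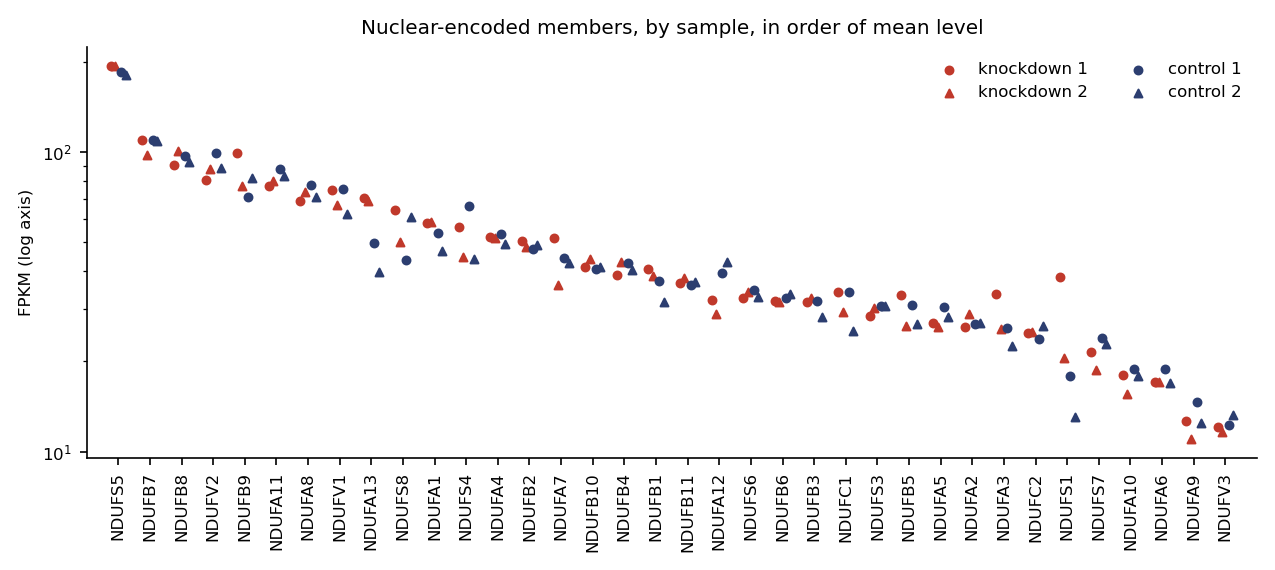
FPKM (log axis) of 36 nuclear-encoded members in each sample, in order of mean level, knockdown in red and control in blue, circles for sample 1 and triangles for sample 2. NDUFS5 stands highest, and most members lie within a narrow band. NDUFA13 and NDUFA12 are spread most clearly by group, and NDUFS1 varies most, with knockdown 1 far above knockdown 2.

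In the core N module, NDUFS1, which carries iron-sulfur clusters at the entry of the electron path (ENSG00000023228.13, chr2:206979541-207024327, minus strand), was at 38.3 and 20.5 FPKM in the knockdown samples and at 17.9 and 13.0 FPKM in the controls. The groups did not overlap, but knockdown 1 was far above knockdown 2. The log2 fold change of 0.84 (SE 0.336; 95% interval -0.06 to 1.73) did not pass (limma, adjusted p = 0.83), and it was 0.40 without knockdown 1 and 1.27 without knockdown 2. EEF1B2, which overlaps it on the opposite strand, was at 236 and 271 FPKM in knockdown and at 295 and 318 FPKM in the controls; its part in the result was not tested. NDUFV2, an iron-sulfur subunit beside the flavin site, was at 80.7 and 87.6 FPKM in knockdown and at 99.8 and 88.8 FPKM in the controls, lower without overlap by a small margin (log2 fold change -0.16, SE 0.106; limma, adjusted p = 0.916). NDUFV1, which binds NADH and the flavin, was at 74.9 and 66.4 FPKM in knockdown and at 75.4 and 62.3 FPKM in the controls.

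In the core Q module, NDUFS7, which holds the last iron-sulfur cluster before ubiquinone, was at 21.6 and 18.7 FPKM in the knockdown samples and at 23.9 and 22.9 FPKM in the controls, both knockdown samples below both controls (log2 fold change -0.21, SE 0.117; limma, adjusted p = 0.896). NDUFS3, a core subunit without an iron-sulfur cluster, was also below in both, at 28.3 and 30.3 FPKM in knockdown and 30.7 and 30.7 FPKM in the controls. NDUFS8, an iron-sulfur subunit, was at 63.9 and 50.1 FPKM in knockdown and at 43.7 and 60.8 FPKM in the controls. Its knockdown samples overlapped the controls, with control 1 the lowest.

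The accessory subunits of the matrix arm had 8 of 9 log2 fold changes below 0, with a median of -0.10, beside 49.8% of all tested genes below 0. The 9 values lay between -0.42 and 0.03, and some of those below 0 were close to it. NDUFA7, at -0.01, became 0.14 when summed with its same-strand neighbours. The groups did not overlap in 3 of the 9 (33.3%, beside 34.6% of all tested genes), all lower. NDUFA12 (ENSG00000184752.12, chr12:95290831-95397546, minus strand), whose paralog NDUFAF2 is an assembly factor of the complex, was the clearest of these. It was at 32.0 and 28.8 FPKM in the knockdown samples and at 39.4 and 42.9 FPKM in the controls. Every knockdown sample lay below every control, 0.739 of the control mean, and the log2 fold change was -0.42 (SE 0.107; 95% interval -0.71 to -0.14). It was under 0.05 only before adjustment (limma, adjusted p = 0.688, and 0.327 to 0.816 over the alternatives that kept all samples). The log2 fold change was between -0.50 and -0.35 with each sample left out, where groups without overlap cannot change direction. NDUFA5, which sits on the Q module, was at 26.9 and 26.1 FPKM in knockdown and at 30.4 and 28.1 FPKM in the controls (log2 fold change -0.14, SE 0.0985; limma, adjusted p = 0.924). NDUFS4, the highest of this set, whose inherited loss is a known cause of Leigh syndrome, was at 56.1 and 44.6 FPKM in knockdown and at 66.1 and 43.9 FPKM in the controls, so here sample 1 of each group was the higher.

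The accessory subunits of the membrane arm had 13 of 20 log2 fold changes above 0, with a median of 0.04, beside 50.2% of all tested genes above 0. The groups did not overlap in 7 (35%, beside 34.6% of all tested genes), 5 higher and 2 lower in knockdown. NDUFA13 (ENSG00000186010.18, chr19:19626545-19639863, plus strand), also known as GRIM-19 and reported as a binding partner of STAT3, had the smallest p of all members. It was at 70.2 and 68.7 FPKM in the knockdown samples and at 49.6 and 39.9 FPKM in the controls. Every knockdown sample lay above every control, 1.55 times the control mean, and the log2 fold change was 0.63 (SE 0.132; 95% interval 0.28 to 0.98). It did not pass after adjustment (limma, adjusted p = 0.607, and 0.288 to 0.81 over the alternatives that kept all samples). The log2 fold change was between 0.48 and 0.79 with each sample left out, where groups without overlap cannot change direction. Of the overlapping same-strand genes, YJEFN3 was at 0.632 and 0.346 FPKM in knockdown and at 1.01 and 0.356 FPKM in the controls. CTC-260F20.3 was at 0.634 and 1.12 FPKM in knockdown and at 2.79 and 2.06 FPKM in the controls. Summed with both genes, NDUFA13 had a log2 fold change of 0.57.

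Smaller differences were seen in 4 other membrane arm subunits named by the rule of smallest p. NDUFA1, a small subunit that spans the membrane near MT-ND1, was at 58.2 and 58.4 FPKM in the knockdown samples and at 53.6 and 46.8 FPKM in the controls (log2 fold change 0.21, SE 0.105; limma, adjusted p = 0.872). NDUFB1, of the distal membrane arm, was at 40.7 and 38.6 FPKM in knockdown and at 37.1 and 31.5 FPKM in the controls (log2 fold change 0.21, SE 0.118; limma, adjusted p = 0.902). Both were higher in each knockdown sample, and in both genes control 2 was the lowest.
NDUFA3, a small membrane-spanning subunit, was at 33.6 and 25.6 FPKM in knockdown and at 25.8 and 22.5 FPKM in the controls, with knockdown 2 just under control 1 (log2 fold change 0.27, SE 0.168; limma, adjusted p = 0.916). Its log2 fold change was 0.08 without knockdown 1, 0.46 without knockdown 2 and 0.18 without control 2. NDUFA11, a membrane-embedded subunit, was at 77.3 and 80.3 FPKM in knockdown and at 87.9 and 83.2 FPKM in the controls, lower without overlap (log2 fold change -0.12, SE 0.0879; limma, adjusted p = 0.932). The lowest of the set, NDUFA10, which rests on the matrix face of the membrane arm, was at 18.0 and 15.6 FPKM in knockdown and at 18.8 and 17.9 FPKM in the controls. The remaining nuclear members had log2 fold changes between -0.17 for NDUFA9 and 0.20 for NDUFB9. NDUFA4, the complex IV subunit, was at 52.2 and 51.9 FPKM in knockdown and at 53.1 and 49.3 FPKM in the controls.

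**Figure D5:**
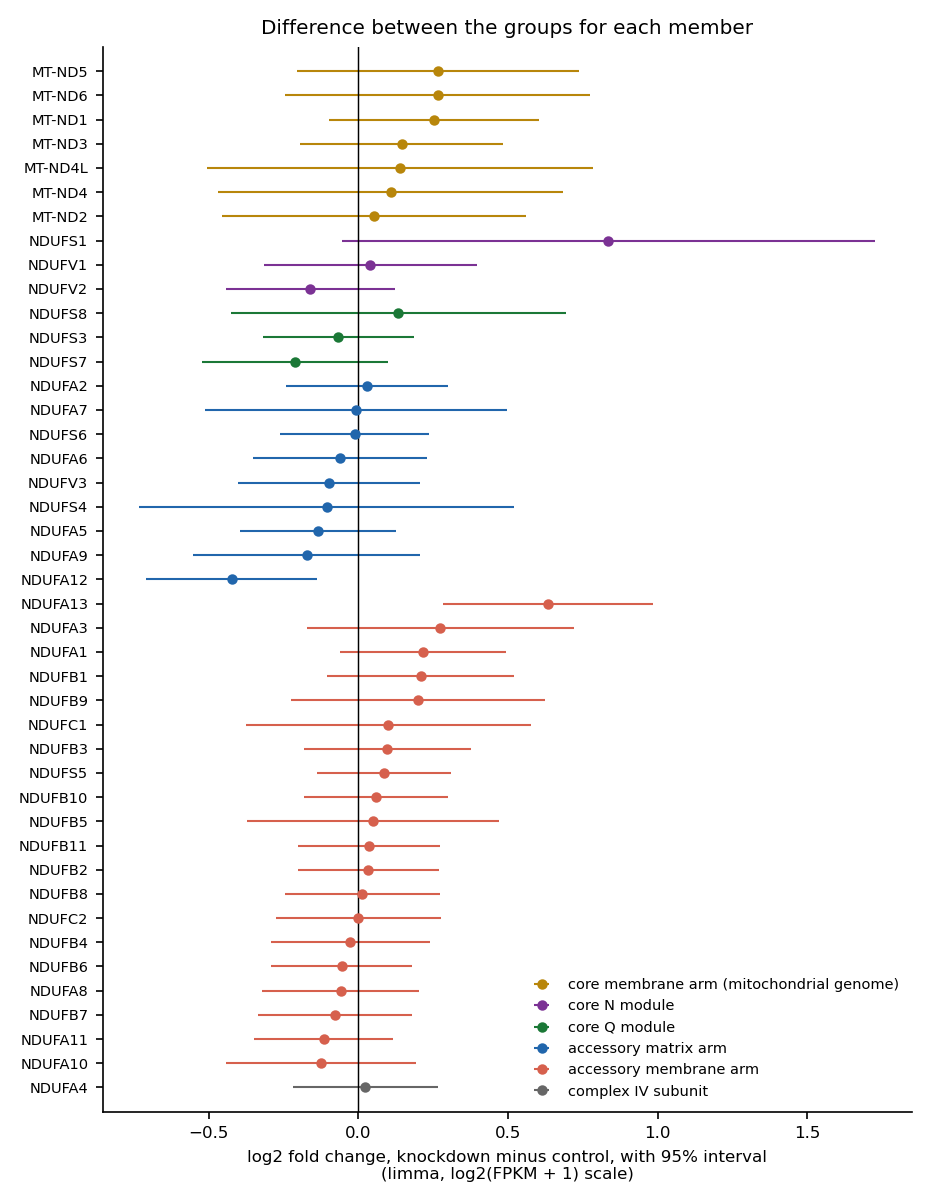
Log2 fold change, knockdown minus control, of 43 members with their 95% intervals from limma on the log2(FPKM + 1) scale, grouped and coloured by role. The intervals of NDUFA13 (0.28 to 0.98) and NDUFA12 (-0.71 to -0.14) do not include 0 before adjustment, and the other 41 drawn do.

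NDUFAB1, the acyl carrier protein that is a subunit of the complex but falls outside the name rule, was at 80.6 and 83.7 FPKM in the knockdown samples and at 88.3 and 93.3 FPKM in the controls (limma, log2 fold change -0.14, adjusted p = 0.916). NDUFA4L2, a paralog of NDUFA4, stayed at or under 0.444 FPKM in all samples.

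In the other respiratory complexes 0 genes passed the adjusted threshold (limma). Among the 6 other mitochondrial messenger RNAs 1, MT-CO3, had groups without overlap (16.7%, beside 34.6% of all tested genes). Log2 fold changes of the 6 were 0.13 to 0.27 with a median of 0.22. These values too depended on control 2: left out, an alternative chosen after seeing the data, the median was 0.02, with -0.18 for MT-CYB and -0.04 for MT-ATP6. Medians were -0.05 for the 4 genes of complex II, -0.04 for 9 nuclear genes of complex III, -0.01 for 10 of complex IV and -0.07 for 15 of complex V. SDHA, the flavoprotein of succinate dehydrogenase, was the only one of these genes under an unadjusted p of 0.05, at 82.7 and 79.8 FPKM in knockdown and at 70.5 and 63.1 FPKM in the controls (limma, adjusted p = 0.806). SDHB, its iron-sulfur subunit, was at 83.3 and 84.1 FPKM in knockdown and at 93.3 and 90.1 FPKM in the controls. SDHD, a membrane anchor, was at 44.4 and 51.1 FPKM in knockdown and at 68.6 and 52.0 FPKM in the controls. SDHA was thus higher, and SDHB and SDHD lower, in both knockdown samples. The groups did not overlap in 3 of 4 genes of complex II (75%), in 5 of 9 of complex III (55.6%), 2 higher and 3 lower, in 3 of 10 of complex IV (30%), 1 higher and 2 lower, and in 6 of 15 of complex V (40%), 1 higher and 5 lower, beside 34.6% of all tested genes.

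A list of 27 genes for mitochondrial RNA synthesis and handling also held POLG and C10orf2, which act in mitochondrial DNA replication. Of the 27 log2 fold changes 19 were below 0, beside 49.8% of all tested genes. Their median was -0.06, beside 0.0012 over all tested genes. In 10 of the 27 genes the knockdown samples were the 2 lowest of the 4 values and in 0 the 2 highest, beside 17.1% and 17.5% of all tested genes. In either direction the groups did not overlap in 37% of the list, beside 34.6% of all tested genes. TFB2M, a transcription factor that opens mitochondrial promoters, was at 9.91 and 9.16 FPKM in the knockdown samples and at 12.5 and 12.4 FPKM in the controls (limma, adjusted p = 0.80). TFAM, which packages mitochondrial DNA and starts transcription, was at 10.5 and 10.3 FPKM in knockdown and at 13.1 and 11.7 FPKM in the controls (limma, adjusted p = 0.89). Both factors were lower in each knockdown sample than in either control. GRSF1, a relative of hnRNP F that binds G-rich mitochondrial RNA including MT-ND6, was at 17.5 and 35.1 FPKM in knockdown and at 29.6 and 29.9 FPKM in the controls. Its lowest and highest values were both in the knockdown group, so no direction can be given.

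Nuclear genes of the respiratory chain are known targets of the transcription factor NRF-1, and the motif was looked for in the promoters of the members. RefSeq promoters (GRCh38.p14, 250 bases before to 50 after the start) were matched for 31 of the 37 nuclear members. The motif, GCGCA, any base and then GCGC on either strand, was in 6 of these (19.4%), against 6.98% of 27305 genes. The ETS motif CCGGAAG was in 5 (16.1%), against 12.2% of those genes. The 27305 genes were not limited to genes expressed in these cells, as the members are, so neither share is set against a like group. The 6 matches are shown because they are a sequence feature the naming rule did not use, with the motif in capitals.
NDUFB4: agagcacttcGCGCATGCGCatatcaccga
NDUFA8: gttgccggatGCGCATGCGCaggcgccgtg
NDUFA9: ttcttggttaGCGCTTGCGCagacaggcga
NDUFA12: acctagctctGCGCACGCGCagagccacca
NDUFA11: ccggtccccgGCGCGTGCGCgcgatccatg
NDUFA3: ctgcgcgagtGCGCACGCGCaggctccgaa
These lie at chr3:120596167-120596196 (plus), chr9:122159764-122159793 (minus), chr12:4649024-4649053 (plus), chr12:95003794-95003823 (minus), chr19:5903869-5903898 (minus) and chr19:54102675-54102704 (plus), in the order listed. A match describes the letters only.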

How the data were processed

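Per the file headers, the deposited table gives FPKM for each gene in 4 samples, computed by the authors, with a symbol, an Ensembl identifier and a locus. STAR 2.5.3a, Cuffdiff 2.2.1 and the build GRCh37 are listed, without roles, in the submitters' processing notes; the annotation release, and any use of strand in counting, is not given in the sources used here. The division of fragments among overlapping genes or near-identical copies can alter an FPKM value, and depth could not be read from them, so no count test was run.

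The 13110 genes whose mean reached 1 FPKM were tested on log2(FPKM + 1) with limma 3.58.1 in R 4.3.3 (moderated variances with a mean-dependent prior), with no covariate and Benjamini-Hochberg adjustment over all of them, at 0.05, two-sided. Fold changes on this scale understate changes of low genes. An exact permutation test of 2 against 2 cannot go below p = 0.333, so none is given. The fit was tested on simulated data. Alternatives were other pseudocounts, filters, scalings and fits, the replicate number as a block, and leaving out each sample. Members and lists were chosen with earlier results of these data known. Named in full were the mitochondrial members and the 10 nuclear members with the smallest p, with the highest and lowest of each role group; 1 member is counted but not reported by name here or drawn. Sequences came from GENCODE 29 and RefSeq, aligned with Biopython 1.88.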

Additional observations from a re-analysis of the deposited data

How the results depend on the processing

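The count of members past the adjusted threshold was 0 in the reported fit and in all 14 alternatives. HNRNPF kept a log2 fold change between -3.13 and -2.98 but lost the call with no filter on low values (-3.05, adjusted p = 0.259), without the intensity trend (-3.05, adjusted p = 0.0995), with the replicate number as a block (-3.05, adjusted p = 0.164) and without either control (limma). The replicate block left the count of members called at 0. With it 5 members and 13.7% of all tested genes were under an unadjusted p of 0.05 (limma), beside 2 and 6.08% in the reported fit. Same-numbered samples had deviations correlated at 0.39 over 13110 genes, but with only 2 pairs this does not establish pairing. Members without overlap numbered 13 to 16 of 44 under other scalings, where 33.7% to 35.9% of all tested genes did not overlap. They numbered 26 to 35 with 1 sample left out, where 1 group is a lone sample and 65.3% to 70.2% of all tested genes do not overlap. The median log2 fold change of the mitochondrial members ranged from 0.0321 to 0.355 with 1 sample left out, and that of the nuclear members from -0.0377 (without control 2) to 0.0186, with -0.0147 without knockdown 1. The mitochondrial minus nuclear difference ranged from 0.0266 to 0.261 with 1 sample left out and was 0.296 with medians over members in place of means; the cause was not tested. MT-ND2 turned to -0.0254 with quantile normalization and ranged from -0.176 to 0.28 with 1 sample left out (-0.00227 without knockdown 1), MT-ND4 from -0.14 to 0.355 and MT-ND4L from -0.163 to 0.44. Of the mitochondrial members and the 10 nuclear members with the smallest p, the other 14 kept their direction under every alternative run, though values of single members moved by over 1.5 times with 1 sample left out, as for NDUFB1 (0.0941 to 0.322), NDUFA1 (0.12 to 0.309), NDUFS7 (-0.31 to -0.113) and NDUFV2 (-0.244 to -0.0783). Members given by level alone are not among these. Where the groups did not overlap, leaving out 1 sample cannot change the direction, and other filters and fits leave the fold change as it was. The 10 nuclear members were also picked by p in these data, so their kept direction is no separate support. With 2 samples per group the precision is limited by their number.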
